A study of Mus musculus with 18 samples.

Results

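The 10 genes described here belong to the circadian clock: Arntl, Clock, Per1, Per2, Per3, Cry1, Nr1d1, Nr1d2, Dbp and Ciart. They were chosen by name, and each of the 10 symbols is a row of the deposited table of 21899 genes, of which 18822 were above 0 in at least 1 library. RNA-seq was performed on liver, epididymal white adipose tissue (eWAT) and quadriceps muscle of wild type C57BL/6 mice at 18 weeks of age. HSD mice had received a high-salt chow with saline as drinking water for 12 weeks, and CON mice a chow diet with tap water. Each of the 6 groups of tissue and diet held 3 libraries, 18 in all. The number in a library's code was taken as the number of the mouse, which gave 4 CON and 4 HSD mice. CON mice 16 and 72 and HSD mice 2 and 5 gave all 3 tissues, CON mouse 71 and HSD mouse 3 gave eWAT and muscle, and CON mouse 14 and HSD mouse 4 gave liver only. The mice were male and housed in a light/dark cycle, and the clock hour at which tissues were taken is not given in the sources used here.

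The clock of mammalian cells is a feedback loop of transcription. The proteins of Arntl (also called Bmal1) and Clock form a pair that binds E-box elements and switches on the Per and Cry genes, Nr1d1, Nr1d2, Dbp and Ciart, and the PER and CRY proteins then switch this pair off. NR1D1 and NR1D2 (REV-ERB proteins) repress Arntl and Clock through ROR elements, DBP acts through D-boxes, and as a result the RNA of Arntl peaks at the opposite time of day from that of Dbp and Nr1d1, with Per and Cry1 peaks in between. A sample taken at 1 hour of the day therefore holds each of these genes at its own point of the cycle, and a shift of the clock would move genes of opposite phase in opposite directions.

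Promoter sequences of these genes were searched for the elements through which such a loop is known to run. RefSeq sequences of build GRCm38.p6, from 250 bases before to 50 bases after a transcript start, were found for 9 of the 10 genes, in 13 windows, since some genes have more than 1 start. They were searched on both strands for the E-box CACGTG, its variant CACGTT, the D-box TTATGTAA, the ROR element core AGGTCA and the cyclic AMP response element TGACGTCA. CACGTG was in 3 of the 13 windows, 1 each of Ciart, Cry1 and Per1, against 7.15% of all 32851 windows. CACGTT was in 1 window each of Cry1 and Nr1d1 (4.68% of all windows), TTATGTAA was in 1 of the 13 windows, that of Per3 (0.938%), and AGGTCA was in 1 window each of Arntl, Clock, Per1 and Nr1d2 (16.3%). TGACGTCA was in 0 of the 13 windows (1.79%), and the window of Dbp held none of these 5 motifs. A match is a run of letters and not a measured binding site. The 5 stretches of 150 bases below hold the matches of the repressor genes Cry1, Ciart, Per1 and Per3, and of Nr1d2, and are printed 5′ to 3′ on the strand of the gene with each match in capitals on whichever strand it reads. The Cry1 stretch (chr10:85185055-85185204, minus strand) has CACGTT on the other strand beginning 79 bases and CACGTG beginning 60 bases before the start. The Ciart stretch (chr3:95882229-95882378, minus strand) has CACGTG 116, 58 and 44 bases before the start. The Per1 stretch (chr11:69098749-69098898, plus strand) ends ahead of the start and has CACGTG at 166 bases and AGGTCA on the other strand at 137 bases before it. The Per3 stretch (chr4:151044766-151044915, minus strand) has TTATGTAA at 205 and 158 bases before the start, and the Nr1d2 stretch (chr14:18239107-18239256, minus strand) has AGGTCA at 77 bases.
Cry1: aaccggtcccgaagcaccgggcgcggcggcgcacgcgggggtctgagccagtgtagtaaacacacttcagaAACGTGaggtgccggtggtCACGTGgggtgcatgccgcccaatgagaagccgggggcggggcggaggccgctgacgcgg
Ciart: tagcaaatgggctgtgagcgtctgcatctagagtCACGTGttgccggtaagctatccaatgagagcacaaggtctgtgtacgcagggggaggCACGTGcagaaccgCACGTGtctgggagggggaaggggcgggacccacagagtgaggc
Per1: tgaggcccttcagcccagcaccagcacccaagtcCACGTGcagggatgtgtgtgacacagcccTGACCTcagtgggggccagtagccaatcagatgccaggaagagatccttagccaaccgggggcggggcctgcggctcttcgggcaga
Per3: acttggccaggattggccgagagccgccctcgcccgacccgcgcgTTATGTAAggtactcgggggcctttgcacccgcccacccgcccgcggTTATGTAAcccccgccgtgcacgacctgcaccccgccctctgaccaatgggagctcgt
Nr1d2: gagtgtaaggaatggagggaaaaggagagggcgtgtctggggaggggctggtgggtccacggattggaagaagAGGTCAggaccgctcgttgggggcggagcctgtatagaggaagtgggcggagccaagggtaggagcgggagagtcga

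Expression is given as FPKM, the number of fragments of a gene per kilobase of its length and relative to all fragments sequenced, so that levels of different genes can be compared. Whole fragments could be recovered from the values, and the libraries held 7576000 to 11517000 fragments in liver, 11982000 to 16184000 in eWAT and 10672000 to 12598000 in muscle. Mitochondrially encoded genes took 15.5% to 61.2% of the fragments in liver, with 61.2% in CON mouse 14, against 3.6% to 5.3% in eWAT and 12% to 17.3% in muscle. Markers fixed for hepatocytes, adipocytes and skeletal muscle were high in the tissue of that name. Libraries CON16L and HS3W stood apart: 6 skeletal muscle markers summed to 3934 FPKM in CON16L and to at most 5.196 FPKM in HSD liver, and 8 epididymal epithelium markers summed to 17430 FPKM in HS3W and to at most 10.13 FPKM in CON eWAT. Adipocyte markers were lowest in HS3W, at 2503 FPKM, against 6718 to 6903 FPKM in CON eWAT. Other markers differed by diet in eWAT as well. Hepatocyte markers summed to 90.92 to 264.7 FPKM in CON and 4.75 to 13.23 FPKM in HSD eWAT, and skeletal muscle markers to 7.765 to 16.14 and 28.74 to 43.93 FPKM. Blood cell markers reached 5627 FPKM in CON liver and 5667 FPKM in CON eWAT, against at most 664.1 and 548.3 FPKM in HSD, with overlapping diets. Leaving out CON16L moved the liver differences of the 10 clock genes by 0.01 to 0.22 on the log2 scale, and leaving out HS3W moved those of eWAT by 0.01 to 0.37. In bulk tissue a different share of a cell type and a different level per cell cannot be told apart.

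Levels of the 10 genes differed between tissues. Over 6 libraries per tissue, the mean level of 5 genes (Clock, Per1, Per2, Per3 and Nr1d1) was highest in eWAT and that of the other 5 (Arntl, Cry1, Nr1d2, Dbp and Ciart) in muscle, and 8 of the 10 were lowest in liver. Nr1d1 was the most abundant, with 83.0 ± 22.8 FPKM in eWAT, 46.8 ± 6.07 FPKM in muscle and 22 ± 8.57 FPKM in liver (SD, n = 6), and the ranges of muscle and liver did not overlap, whereas those of eWAT and muscle did. Clock and Per3 separated all 3 tissues without overlap: Clock was at 7.47 ± 0.607, 3.68 ± 0.497 and 2.05 ± 0.638 FPKM and Per3 at 10.7 ± 1.31, 4.60 ± 1.01 and 1.58 ± 0.618 FPKM in eWAT, muscle and liver. Arntl was the least abundant in liver, at 0.623 ± 0.219 FPKM, where its values rest on few fragments, and reached 3.20 ± 0.649 FPKM in muscle. For Per1, Per2, Cry1, Dbp and Ciart, neighbouring tissues in the order of levels overlapped at every step. The highest and the lowest tissue still stood apart for Per1, Per2 and Ciart, and overlapped for Cry1 and Dbp. The genes rested on 15 to 1086 fragments per library in liver (median 220), 29 to 4640 in eWAT and 88 to 3006 in muscle, and counting error is therefore largest in liver. This order depended on the mitochondrial share of liver fragments. With FPKM divided by the share of fragments outside mitochondrially encoded genes, a scaling added after the data were seen, 6 of the 10 genes were lowest in liver, the liver overlapped with muscle for Clock, Per3 and Nr1d1, and Per2 was highest in liver at 12.5 ± 8.21 against 9.09 ± 2.58 in eWAT and 4.46 ± 0.775 in muscle.

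**Figure D1:**
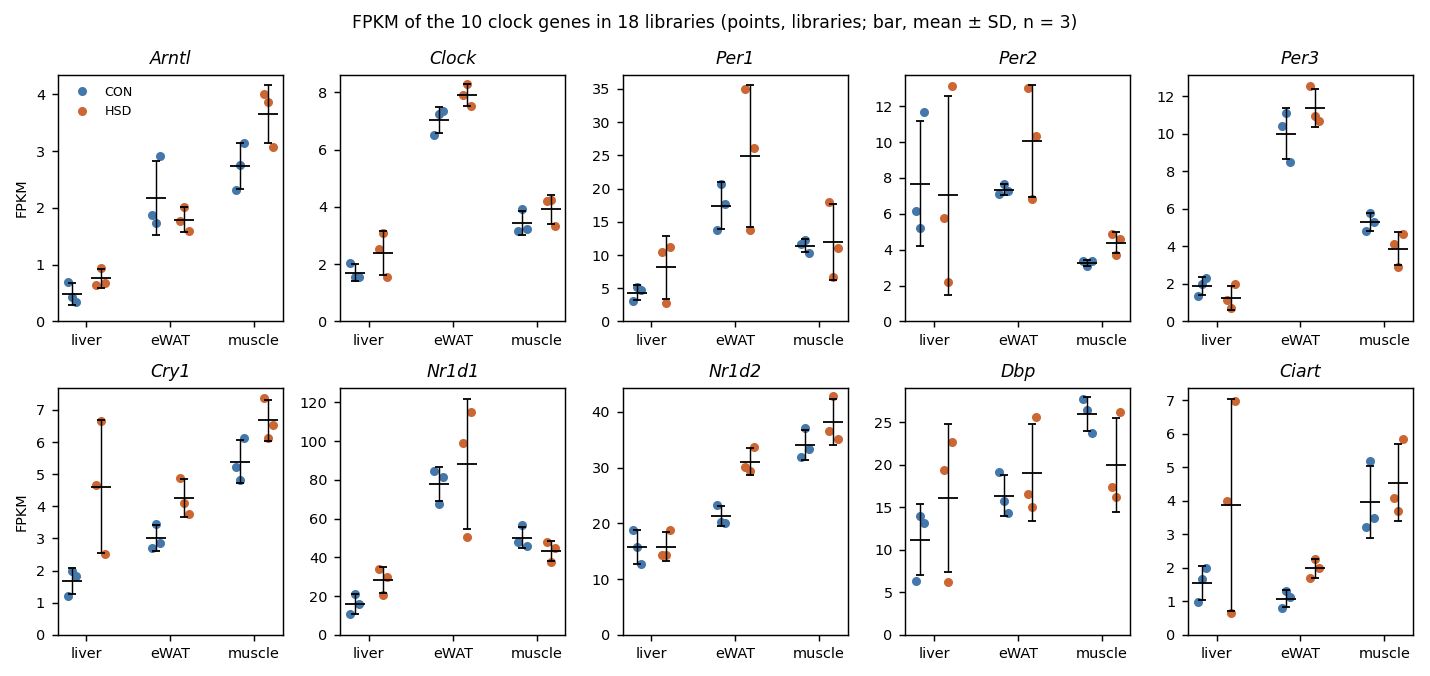
FPKM of each clock gene (y axis, linear, from 0) in liver, eWAT and muscle (x axis); points are libraries of CON (blue) and HSD (orange) mice, and the bar is the mean ± SD of 3 libraries. Cry1 was higher in the HSD libraries of all 3 tissues, and Ciart ran from 0.639 to 6.99 FPKM within HSD liver.

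Cry1, which encodes a repressor of the ARNTL and CLOCK pair, was the clock gene with the largest difference between diets in the average over tissues. In liver, Cry1 was at 1.22, 1.98 and 1.83 FPKM in CON mice 14, 16 and 72 and at 4.65, 6.66 and 2.52 FPKM in HSD mice 2, 4 and 5. In eWAT, it was at 2.71, 3.46 and 2.86 FPKM in CON mice 16, 71 and 72 and at 4.89, 4.11 and 3.75 FPKM in HSD mice 2, 3 and 5. All HSD libraries were above all CON libraries in both tissues, and HSD mouse 4 held the highest value in liver. In muscle, it was at 5.22, 4.83 and 6.13 FPKM in CON mice and at 7.38, 6.13 and 6.52 FPKM in HSD mice of the same order, where the lowest HSD value exceeded the highest CON value by a margin within rounding (6.133 against 6.130 FPKM). Cry1 was the only clock gene whose diets stood apart without overlap in all 3 tissues, with HSD higher, and 0.278% of 9001 genes above 0.5 FPKM in each tissue showed this pattern (25 genes).

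The log2 difference of Cry1, HSD minus CON, on the scale of log2(FPKM + 0.5) was 1.16 ± 0.34 (SE) for liver, 0.44 ± 0.14 for eWAT and 0.29 ± 0.13 for muscle. The adjusted p-values of limma were 0.764, 0.235 and 0.314, so that the difference passed the test in none of the tissues. In 1 limma fit of all 18 libraries with the mouse as a random block, the difference averaged over tissues was 0.63 ± 0.14 (95% interval 0.33 to 0.94). Its adjusted p of limma was 0.0584, and Cry1 ranked 101st of 13067 genes by p. The block used 1 correlation for all genes, 0.0222, so the tissues of a mouse counted as almost independent. If the tissues of a mouse vary together more than this for Cry1, the interval is too narrow and the p too small. Over 33 alternative settings the average kept its sign, between 0.50 and 0.80, and the adjusted p ran from 0.00378 to 0.151 and was under 0.05 in 6 of them. Without both CON16L and HS3W, the average was 0.67 with an adjusted p of 0.0408, and it was 0.66 without CON16L (adjusted p = 0.0452) and 0.75 without liver HSD mouse 5 (adjusted p = 0.00959). A test of whether the diet difference of Cry1 differed between tissues gave a limma adjusted p of 0.430. With the 15 libraries that the study's quality table lists, which leave out CON16L, HS5L and HS5W, this adjusted p was 0.0128. It was 0.0450 without liver HSD mouse 5. Many more genes passed the same test in these settings, 2826 of 13149 and 277 of 13119, against 65 of 13067 with all libraries.

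None of the 10 clock genes was called in any comparison, at an adjusted p of limma under 0.05 with an absolute log2 difference of at least 1. By this rule the percentage of all genes called was 0 in liver (of 10317) and 0 in eWAT (of 13740), 0.323 in muscle (35 of 10834) and 0.0995 in the average over tissues (13 of 13067), and 0.497 passed the test of a difference between tissues at adjusted p alone (65 of 13067). These counts are of limma on log2 FPKM with all deposited libraries. At the same limits the study, which used DESeq2, reported many more genes in liver and eWAT. Without HS3W, limma called 160 genes in eWAT. With adjusted p alone, 0 of the 10 passed as well, against 0.895% of all genes in muscle and 0.566% in the average. At an unadjusted p of limma under 0.05 there were 1 of 10 in liver (5.74% of all genes), 3 of 10 in eWAT (16.7%), 4 of 10 in muscle (16.3%) and 3 of 10 in the average (13.5%). With arrayWeights, which weigh libraries by their spread, Per1, Cry1 and Nr1d1 were called in liver (3 of 10, with 926 genes called in all). That fit gave an unadjusted p of limma under 0.05 for 7414 of all 10317 liver genes and for 9 of the 10 clock genes. With all 18 libraries in 1 fit, Cry1 was called in liver (1 of 10, with 41 genes in all). Voom on recovered fragments called 0 of 10 in each tissue and in the average. In the main fits, unadjusted p-values under 0.05 were those of Cry1 in liver, Nr1d2, Ciart and Cry1 in eWAT, Per2, Arntl, Per3 and Dbp in muscle, and Cry1, Clock and Nr1d2 in the average. In muscle, where libraries of the same replicate number deviated together, the fit with this number as a block called 54 genes in place of 35, and again 0 clock genes. The diets did not overlap for 1 clock gene in liver (12.1% of all genes), 4 in eWAT (28.6%) and 3 in muscle (22.3%). HSD was the higher diet for the 1 gene in liver (8.62% of all genes did so), for all 4 in eWAT (Clock, Cry1, Nr1d2 and Ciart, 16.2%) and for Per2 and Cry1 in muscle (6.72%), and the lower for Per3 in muscle (15.6%) and for 0 clock genes in liver (3.47%) and eWAT (12.4%). The median difference of the 10 genes was 0.38 in liver, 0.29 in eWAT, 0.16 in muscle and 0.23 in the average, beside medians of 0.13, 0.08, −0.06 and 0.04 over all genes tested.

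**Figure D2:**
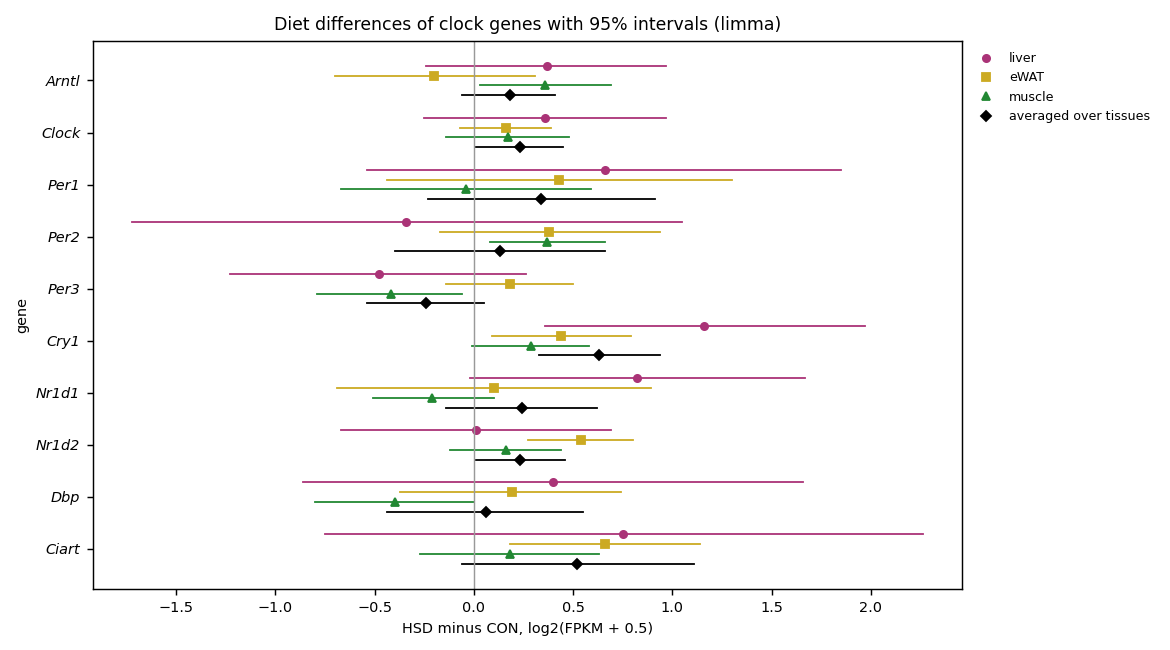
HSD minus CON difference of each clock gene on the log2(FPKM + 0.5) scale (x axis) for liver, eWAT, muscle and the average over tissues (markers), with 95% intervals of limma as lines. The average of Cry1 was 0.63 (0.33 to 0.94), and no gene passed the adjusted test.

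Arntl and Clock encode the activating pair of the loop. Muscle Arntl was at 2.32, 2.76 and 3.14 FPKM in CON mice 16, 71 and 72 and at 4.01, 3.87 and 3.08 FPKM in HSD mice 2, 3 and 5. Mice 2 and 3 were above all CON mice and mouse 5 lay within their range, and the log2 difference was 0.36 ± 0.15 (limma adjusted p = 0.267). In eWAT, Arntl was at 1.88, 1.73 and 2.92 FPKM in CON mice and at 1.77, 2.02 and 1.60 FPKM in HSD mice of the same order. The difference was −0.20 ± 0.21 there, CON mouse 72 was the highest, and the diets overlapped. In liver, Arntl was at 0.697, 0.423 and 0.334 FPKM in CON mice 14, 16 and 72 and at 0.651, 0.948 and 0.684 FPKM in HSD mice 2, 4 and 5, a log2 difference of 0.37 ± 0.26 with overlapping diets. Clock was at 6.51, 7.23 and 7.35 FPKM in CON eWAT and at 7.91, 8.28 and 7.53 FPKM in HSD eWAT, without overlap but with a log2 difference of only 0.16 ± 0.09. Its average over tissues was 0.23 ± 0.10 (limma adjusted p = 0.355). In liver, the Clock difference of 0.36 was 0.18 without HSD mouse 4 and 0.58 without HSD mouse 5. Without mitochondrially encoded genes, and with the remaining FPKM rescaled, it was 0.00, where the median of all liver genes moved from 0.13 to −0.26.

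The Per genes encode the partners of CRY in repression and had differences of both signs. Per2 in muscle was at 3.38, 3.07 and 3.34 FPKM in CON mice 16, 71 and 72 and at 4.86, 3.72 and 4.58 FPKM in HSD mice 2, 3 and 5, without overlap, with a log2 difference of 0.37 ± 0.13 (limma adjusted p = 0.203). Per3 in the same muscles was at 4.84, 5.81 and 5.29 FPKM in CON and at 4.11, 2.90 and 4.66 FPKM in HSD mice. All HSD values of Per3 lay below CON there, a log2 difference of −0.42 ± 0.16 (limma adjusted p = 0.246), opposite in sign to Per2. Per1 in muscle was at 11.6, 12.3 and 10.3 FPKM in CON and at 18.0, 6.67 and 11.1 FPKM in HSD mice, so that HSD mouse 2 was above and HSD mouse 3 below every CON mouse, and the log2 difference was −0.04 ± 0.28.

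In eWAT, Per1 was at 13.7, 20.8 and 17.7 FPKM in CON mice 16, 71 and 72 and at 34.9, 13.8 and 26.0 FPKM in HSD mice 2, 3 and 5. HSD mice 2 and 5 were above all CON mice, and HSD mouse 3 was beside the lowest CON mouse. Per2 in eWAT was at 7.10, 7.67 and 7.26 FPKM in CON and at 13, 6.82 and 10.3 FPKM in HSD mice, with the same order of the HSD mice. The log2 differences were 0.43 ± 0.35 for Per1 and 0.38 ± 0.23 for Per2, and without HS3W they were 0.80 (limma adjusted p = 0.0679) and 0.63 (limma adjusted p = 0.0355). Per3 in eWAT ran from 8.51 to 11.1 FPKM in CON and from 10.7 to 12.6 FPKM in HSD mice, with overlapping diets.

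In liver, Per1 was at 3.07, 5.13 and 4.80 FPKM in CON mice 14, 16 and 72 and at 10.5, 2.74 and 11.2 FPKM in HSD mice 2, 4 and 5. HSD mice 2 and 5 were above and HSD mouse 4 below every CON mouse. Per2 was at 6.13, 5.23 and 11.7 FPKM in CON and at 5.79, 2.19 and 13.1 FPKM in HSD liver, and Per3 at 1.36, 2.02 and 2.31 FPKM in CON and at 1.14, 0.692 and 1.97 FPKM in HSD liver. HSD mouse 4 had the lowest level of all 3 Per genes. The log2 differences were 0.66 ± 0.51 for Per1, −0.34 ± 0.59 for Per2 and −0.48 ± 0.32 for Per3, each with a limma adjusted p of at least 0.764. Without HSD mouse 4 they were 1.26, 0.26 and −0.23, and without HSD mouse 5 they were 0.33, −0.91 and −0.76.

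Nr1d1 and Nr1d2 encode the REV-ERB repressors of Arntl. Nr1d2 in eWAT was at 23.4, 20.3 and 20.1 FPKM in CON mice 16, 71 and 72 and at 30.0, 29.3 and 33.8 FPKM in HSD mice 2, 3 and 5. The diets did not overlap, with a log2 difference of 0.54 ± 0.11 (95% interval 0.27 to 0.80, limma adjusted p = 0.134), and without HS3W it was 0.58 with an adjusted p of 0.0326. Nr1d2 differed by 0.16 ± 0.12 in muscle and by 0.01 ± 0.29 in liver. Nr1d1 in eWAT was at 84.4, 67.6 and 81.5 FPKM in CON and at 98.9, 50.3 and 115.2 FPKM in HSD mice. Its HSD values lay on both sides of CON, with mouse 3 lowest, and the log2 difference was 0.10 ± 0.32, or 0.46 without HS3W. In liver, Nr1d1 was at 10.7, 20.9 and 16.1 FPKM in CON mice 14, 16 and 72 and at 33.9, 20.7 and 29.9 FPKM in HSD mice 2, 4 and 5, a log2 difference of 0.82 ± 0.36 (limma adjusted p = 0.764) that was 0.42 when mitochondrially encoded genes were left out, with the same move of the median. In muscle, it ran from 46.1 to 56.5 FPKM in CON and from 37.7 to 48.0 FPKM in HSD mice.

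Dbp encodes a transcription factor of D-boxes and is a direct output of the loop, and Ciart encodes a repressor of the ARNTL and CLOCK pair. Dbp in muscle was at 27.7, 26.4 and 23.8 FPKM in CON mice 16, 71 and 72 and at 17.4, 16.2 and 26.3 FPKM in HSD mice 2, 3 and 5. Mice 2 and 3 were below all CON mice and mouse 5 was among them, with a log2 difference of −0.40 ± 0.18 (limma adjusted p = 0.303). In liver, Dbp was at 6.35, 14 and 13.2 FPKM in CON and at 19.4, 6.24 and 22.6 FPKM in HSD mice 2, 4 and 5, where CON mouse 14 and HSD mouse 4 were low together. For CON mouse 14 this depended on scaling, as mitochondrially encoded genes took 61.2% of its fragments. With FPKM divided by the share of fragments outside these genes, the lowest liver was HSD mouse 4, at 7.39. In eWAT, Dbp ran from 14.3 to 19.1 FPKM in CON and from 15.1 to 25.6 FPKM in HSD mice. The Dbp difference was 0.40 ± 0.54 in liver, 0.19 ± 0.23 in eWAT and 0.06 ± 0.23 in the average. The liver value was 0.95 without HSD mouse 4, 0.07 without HSD mouse 5 and 0.05 without CON mouse 14. Ciart in eWAT was at 0.800, 1.31 and 1.12 FPKM in CON and at 1.69, 2.27 and 1.99 FPKM in HSD mice 2, 3 and 5, without overlap, a log2 difference of 0.66 ± 0.20 (limma adjusted p = 0.210). In liver, Ciart was at 0.986, 1.67 and 1.98 FPKM in CON and at 3.99, 0.639 and 6.99 FPKM in HSD mice 2, 4 and 5, the widest log2 range of the 10 genes among HSD livers. The liver difference of Ciart was 1.53 without HSD mouse 4 and 0.18 without HSD mouse 5. In muscle it ran from 3.20 to 5.19 FPKM in CON and from 3.68 to 5.85 FPKM in HSD mice.

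The question whether the clock of HSD mice stood at another phase was then addressed with ratios of 2 clock genes within a library. They are given as log2 ratios of FPKM + 0.5 and as a description, with no test. The total by which a library is scaled cancels in a plain ratio. The added 0.5 brings back some dependence on it, most for low genes such as Arntl in liver (0.334 to 0.948 FPKM). Of 8 ratios, 4 separated the diets in 1 tissue and 0 in more than 1 tissue, and 2 had the same sign of difference in all 3 tissues. How often ratios of other genes do so was not measured, so these counts have no background beside them. The ratios also share genes, among them Arntl, Nr1d1 and Dbp, and are not separate observations. Dbp against Arntl, genes of opposite phase, was 3.04 ± 0.29 in CON and 2.28 ± 0.54 in HSD muscle (SD, n = 3), a difference of −0.76 with overlapping diets. The same difference was 0.38 in eWAT and 0.03 in liver. With 1 library left out it ran from 0.09 to 0.60 in eWAT, opposite in sign to muscle. In liver it ran from −0.46 to 0.69, so that its direction there was not settled.

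In muscle, Nr1d1 against Arntl was at 4.1, 4.13 and 3.68 in CON mice 16, 71 and 72 and at 3.42, 3.13 and 3.66 in HSD mice 2, 3 and 5, lower in all HSD mice with a mean difference of −0.57. The gap between CON mouse 72 and HSD mouse 5 was small. Per3 against Clock was at 0.55, 0.51 and 0.63 in CON and at −0.03, −0.48 and 0.42 in HSD muscle, also without overlap (−0.59). Per2 against Nr1d1 was at −3.64, −4.00 and −3.60 in CON and at −3.18, −3.18 and −3.15 in HSD muscle, higher in all HSD mice by 0.58, with the HSD mice within 0.03 of each other. In muscle, the difference was above 0 for 6 of the 10 genes (Arntl, Clock, Per2, Cry1, Nr1d2 and Ciart) and below 0 for 4 (Per1, Per3, Nr1d1 and Dbp), where Per1 turned to 0.05 with median-ratio scaling, and 0 of the 10 were past the adjusted test of limma.

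In eWAT, the same 3 ratios overlapped between diets, with differences of 0.30, 0.02 and 0.28. There it was Ciart against Arntl that did not overlap, with −0.87, −0.30 and −1.08 in CON mice 16, 71 and 72 and −0.06, 0.13 and 0.25 in HSD mice 2, 3 and 5, a difference of 0.86. In liver, 0 of the 8 ratios separated the diets. The ratios of the same sign in all tissues were Cry1 against Dbp (0.76 in liver, 0.25 in eWAT and 0.69 in muscle) and Per1 against Dbp (0.26, 0.24 and 0.36), and both overlapped between diets in every tissue. Without HSD mouse 2, the Per1 against Dbp difference in muscle was −0.06. With 1 library left out, this difference fell to −0.13 in eWAT, and that of Cry1 against Dbp fell to −0.08 in liver. These ratios thus showed no separation of the diets that all 3 tissues shared. Whether a smaller displacement was shared cannot be decided from them, as several liver signs turned when 1 library was left out. Each mouse gave 1 sample of a tissue, at an hour not given in the sources used here. The hour of harvest, a phase shift, a change of amplitude and a change of level cannot be told apart from such samples.

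**Figure D3:**
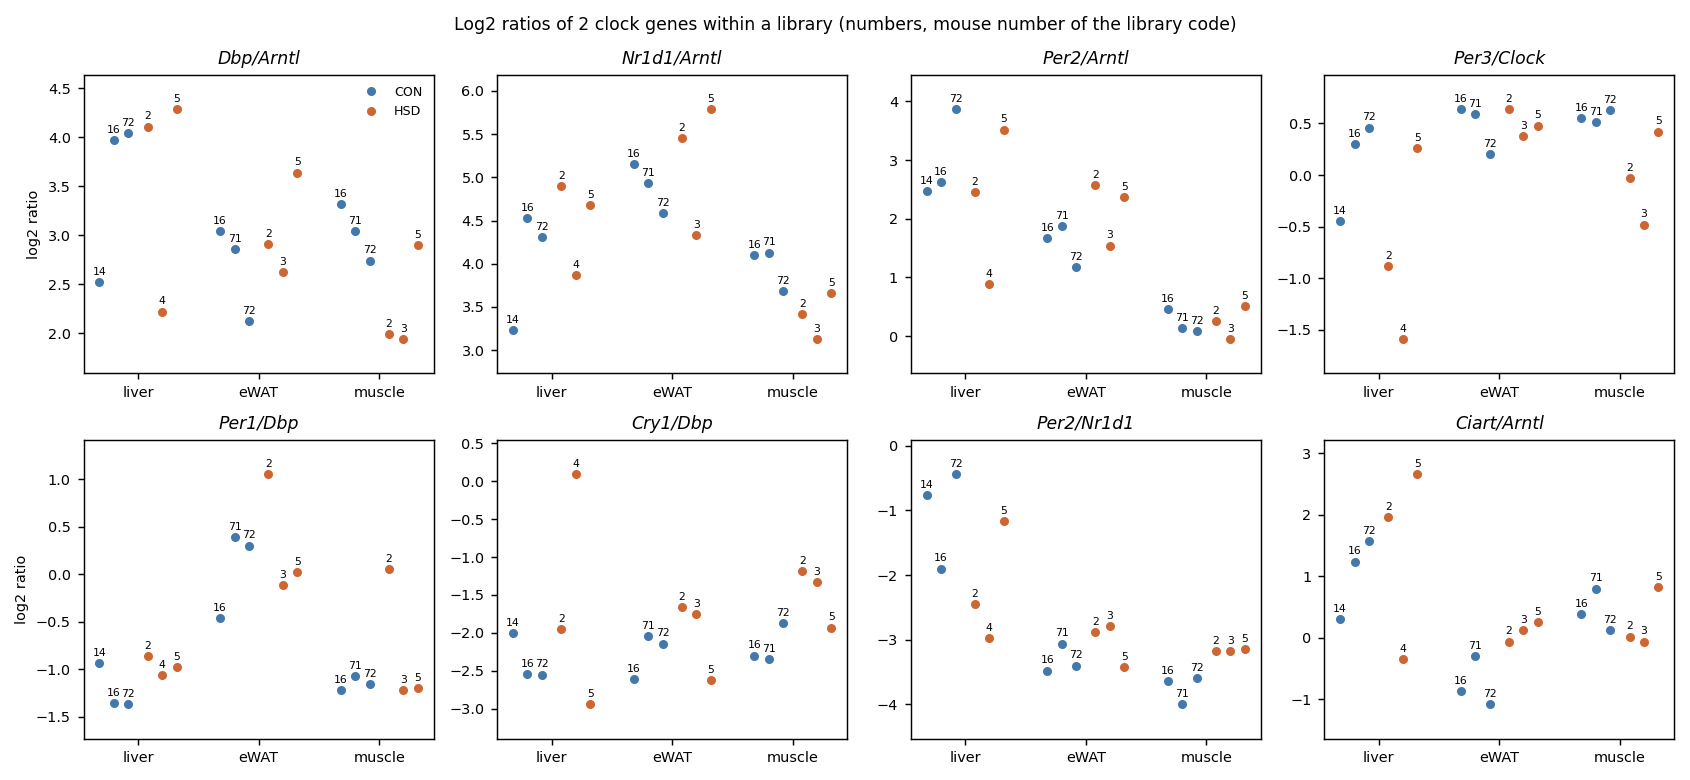
Log2 ratio of 2 clock genes within a library, FPKM + 0.5 (y axis, a different range in each panel), in liver, eWAT and muscle (x axis) for CON (blue) and HSD (orange) mice; the number is that of the mouse. Nr1d1/Arntl, Per3/Clock and Per2/Nr1d1 separated the diets in muscle and Ciart/Arntl in eWAT, whereas Dbp/Arntl differed by −0.76 in muscle, 0.38 in eWAT and 0.03 in liver.

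Differences among mice of 1 diet were as large as those between diets for several genes. HSD mice 2 and 5 were above their tissue mean in Per1 in liver and eWAT (by 0.88 and 0.98 log2 units in liver and 0.79 and 0.37 in eWAT), whereas HSD mouse 4 in liver and HSD mouse 3 in eWAT and muscle were below it. In HSD mouse 4, Cry1, Arntl and Clock were the highest of the 6 livers and Per1, Per2, Per3, Dbp and Ciart the lowest. For Arntl and Clock this depended on scaling. With FPKM divided by the share of fragments outside mitochondrially encoded genes, CON mouse 14 was the highest liver for both, at 1.8 and 5.27. HSD mouse 4 remained the highest for Cry1 (7.89) and the lowest for the other 5 genes. In HSD mouse 3, Arntl, Clock, Cry1 and Nr1d2 were above and Dbp, Nr1d1, Per1 and Per2 below the tissue mean in both of its tissues. HSD mouse 2 was above the mean in all 3 tissues for Clock, Cry1, Nr1d1 and Per1, and HSD mouse 5 for Ciart, Dbp, Per2 and Per3. CON mouse 16 was below it in all 3 tissues for 5 genes (Arntl, Ciart, Clock, Cry1 and Per2). The range of log2 values was wider in HSD than in CON for 7 of 10 genes in liver, 5 in eWAT and 7 in muscle, beside 46%, 79.3% and 66.1% of all genes tested. In liver, the range of Per1 was 1.86 in HSD and 0.66 in CON, and that of Ciart was 2.72 and 0.74.

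**Figure D4:**
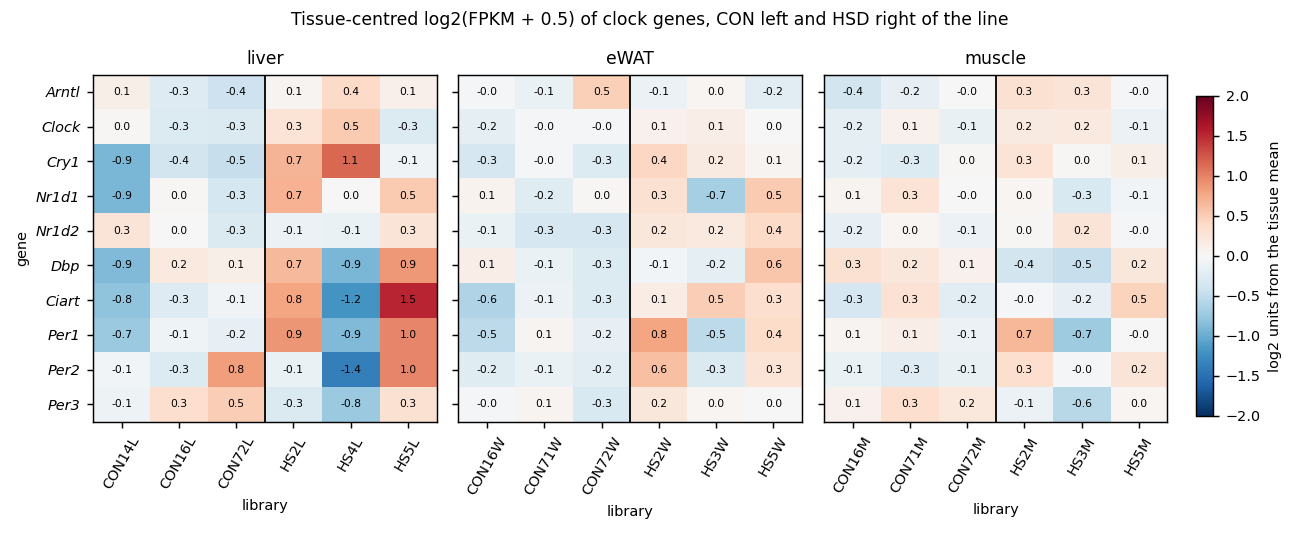
Log2(FPKM + 0.5) of clock genes (rows) minus the mean of the 6 libraries of the tissue, by library (columns; L, W and M stand for liver, eWAT and muscle), with CON left and HSD right of the line; colours run from −2 (blue) to 2 (red) log2 units. HS4L was the highest liver for Arntl, Clock and Cry1 on this scale and the lowest for the Per genes, Dbp and Ciart. With FPKM divided by the share of fragments outside mitochondrially encoded genes, CON14L was the highest for Arntl and Clock.

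Genes that answer quickly to handling, feeding or hormones were measured beside Per1, which such stimuli are also known to induce. Fos, an immediate early gene, was at 1.12, 3.44 and 1.53 FPKM in CON liver and at 6.49, 0.533 and 6.07 FPKM in HSD mice 2, 4 and 5, and Egr1 at 2.72, 9.09 and 5.07 FPKM in CON and at 33.8, 2.56 and 40.4 FPKM in HSD liver. As for Per1, HSD mice 2 and 5 were above and HSD mouse 4 below all CON mice. Other genes of this kind did not follow this order in liver. Junb ran from 22.57 to 37.79 FPKM in CON and from 35.96 to 91.31 FPKM in HSD liver. Ier2 ran from 21.16 to 26.92 FPKM in CON and from 34.2 to 57.05 FPKM in HSD liver, so that no HSD mouse was below CON. In eWAT, Fos was at 33.7, 15.5 and 81.0 FPKM in CON and at 59.2, 29.9 and 109 FPKM in HSD mice 2, 3 and 5. In muscle, Fos was at 9.46 FPKM in HSD mouse 2, which had the highest Per1, and at 27.4 FPKM in HSD mouse 3, which had the lowest. The part of such genes in the Per1 values was not tested. Of 9 genes of this kind, which include targets of glucocorticoids, 8 were tested in liver and 9 elsewhere, and 0 were called in any comparison. At an unadjusted p of limma under 0.05 there were 2 in liver, 1 in eWAT, 3 in muscle and 3 in the average, beside 5.74%, 16.7%, 16.3% and 13.5% of all genes tested. Fkbp5, a glucocorticoid target, differed by 0.61 ± 0.13 in muscle (limma adjusted p = 0.0758) and was at 28.1 FPKM in HS3W against 7.26 to 10.8 FPKM in CON eWAT. Sgk1, a kinase that answers to glucocorticoids and mineralocorticoids, fell by 0.77 on the log2 scale in muscle (limma adjusted p = 0.0334, 0.00896 to 1 over 19 alternatives, of which 11 were under 0.05), under the fold limit of a call, and differed by 0.66 ± 0.18 in eWAT (adjusted p = 0.198).

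The wider clock was described with 17 further genes, of which 12 were above the FPKM filter in liver, 14 in muscle and 15 in eWAT and in the average. None was called. At an unadjusted p of limma under 0.05 there were 1 in liver, 2 in eWAT, 2 in muscle and 5 in the average, the last with 3 higher and 2 lower in HSD, beside the same 5.74%, 16.7%, 16.3% and 13.5% of all genes tested. Of the D-box factors related to Dbp, Hlf differed by 0.47 ± 0.17 in the average (adjusted p = 0.249) and Tef by 0.14 ± 0.17. Nfil3, which represses through D-boxes, differed by 0.13 ± 0.13, Npas2, a relative of Clock, by −0.32 ± 0.15, and Bhlhe41, a repressor acting at E-boxes, by 0.18 ± 0.16. Npas2 was under the FPKM filter in liver and muscle, and Bhlhe41 in liver, so these 2 averages rest in part on low values. In eWAT, Npas2 differed by −0.29 ± 0.22 (limma adjusted p = 0.52).

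Of 10 outputs of the clock, 0 were called in any comparison, and the median difference in the average was 0.02. Usp2, a ubiquitin protease under clock control, differed by 0.72 ± 0.63 in liver, 0.80 ± 0.31 in eWAT, −0.29 ± 0.18 in muscle and 0.41 ± 0.29 in the average, and Wee1, a cell cycle kinase with E-boxes in its promoter, by 0.14 ± 0.18 in the average. Pdk4, a kinase that inhibits pyruvate dehydrogenase, and Alas1, the rate-limiting enzyme of heme synthesis, are named after their values were seen. Pdk4 in muscle was at 72.05, 50.5 and 29.7 FPKM in CON and at 242.9, 220.5 and 81.9 FPKM in HSD mice 2, 3 and 5, without overlap, a log2 difference of 1.77 ± 0.41 (limma adjusted p = 0.0873). Alas1 was at 46.0, 30.9 and 27.3 FPKM in CON liver and at 19.8, 9.89 and 13.9 FPKM in HSD liver, and HSD lay below CON in each of the 3 tissues, as for 0.311% of 9001 genes. Its difference in the average was −0.72 ± 0.16 (limma adjusted p = 0.0528, 0.0115 to 0.154 over alternatives).

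Genes of like pattern were sought over the 18 libraries after the mean of each tissue was subtracted, among 9001 genes with at least 0.5 FPKM on average in every tissue. These correlations describe libraries that share mice, depth and scaling, and carry no test. The genes nearest to Dbp were Trpt1 (Pearson r = 0.86), Egr1 (0.83), Snx11 (0.82), Slc29a1 (0.81) and Mettl17 (0.80). Of the clock genes, Ciart ranked 9th with r = 0.77, followed by Nr1d1 (0.71), Per1 (0.70), Per3 (0.56) and Per2 (0.52), whereas Arntl and Clock were both at −0.52. The gene nearest to Arntl was Nfil3 (0.76), then Trappc8 (0.73), Exoc5 (0.72), Fbxo9 (0.72) and Ntan1 (0.69). Clock had r = 0.60 with Arntl and ranked 21st. Per3 had r = −0.76 and ranked 9000th, the last place, as Arntl itself was not ranked. Cry1 and Nr1d2 had r = −0.06 and 0.06 with Dbp, and Nr1d1 had r = −0.08 with Arntl.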

How the data were processed

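Liver, eWAT and quadriceps muscle RNA was depleted of rRNA and sequenced in 18 stranded libraries. Reads were trimmed by the authors with cutadapt and mapped to mm10 with hisat2, and FPKM were calculated by cuffdiff with Ensembl gene models. The deposited FPKM were used without change. The submitters' processing notes name HISAT2, HTSeq 0.9.1 and the builds mm9 and mm10. When FPKM were multiplied by the exon length of a gene in GENCODE M21, whole fragments resulted in every library (tolerance 0.02) for 18331 of the 18822 genes above 0. Fragments do not tell apart molecules copied by PCR, so their number covers counting error only.

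Tissue and diet were taken from the sample labels and the mouse from the library code. The members and gene lists were chosen with earlier results of these data known. Limma 3.58.1 (R 4.3.3) was fitted to the log2(FPKM + 0.5) of each tissue, with eBayes and trend, where genes under a mean of 0.5 FPKM were left out. This scale understates the change of low genes. p-values were adjusted by Benjamini-Hochberg over all genes tested, and a gene was called when the adjusted p was below 0.05 and log2 values differed by 1 or more. The average over tissues and the difference between tissues (an F test, called at adjusted p under 0.05) came from 1 limma fit of 18 libraries with the mouse as a random block (correlation 0.0222). This correlation is 1 value for all genes. Intervals of averages are too narrow for a gene whose tissues vary together more than this within a mouse. The authors used DESeq2, which was not run here; voom was the test on recovered fragments. The fits were tested on simulated data.

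Alternatives were pseudocounts (0.1 and 1), filters (none, or a mean of 1 FPKM), scaling by median ratios, by quantile normalization or after removal of mitochondrially encoded genes, eBayes without trend, arrayWeights, adjusted p alone, the replicate number as a block, all libraries in 1 fit, no mouse block, the 15 libraries of the study's quality table, and each library left out. Limma voom on recovered fragments and the fit without CON16L and HS3W were added after the data were seen. As CON and HSD mice are different animals, only the replicate number could pair them: deviations from the group mean correlated across genes at 0.383, 0.177 and 0.184 between same-numbered muscle libraries, and at −0.473 to 0.395 in liver and −0.197 to 0.414 in eWAT. Named were the 10 clock genes; of 17 wider clock genes, 10 outputs and 9 acute inducers, those called and Npas2, Tef, Hlf, Nfil3, Bhlhe41, Usp2, Wee1, Fos and Fkbp5; and the 5 genes nearest to Dbp and to Arntl. Of the genes that this rule names, 1 is not reported here. Alas1, Pdk4 and Sgk1, and Egr1, Junb and Ier2 in liver, were named after their values were seen. Promoters were read from RefSeq (GRCm38.p6), and gene symbols from the deposited table. Python 3.11.15 with numpy 2.4.6, pandas 2.3.3 and matplotlib 3.10.9 was used.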

Additional observations from a re-analysis of the deposited data

How the results depend on the processing

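With 3 libraries a group from different mice, and single values as low as 15 fragments in liver, small differences of low genes were not detectable at this depth, and p-values measure the spread among these mice. Counts of clock genes called remained 0 except with arrayWeights in liver (3: Per1, Cry1 and Nr1d1, of 926 genes), with all 18 libraries in 1 fit in liver (1: Cry1, of 41 genes) and, for the difference between tissues, with the libraries of the study's quality table (1: Cry1, of 2826 genes) or without liver HSD mouse 5 (1: Cry1; range 0 to 1 over libraries left out). The cause was not tested for any value here. Over all genes, the study's libraries gave 35 calls in liver and 106 in the average. In eWAT, arrayWeights gave 220 calls and all libraries in 1 fit gave 161. In muscle, calls were 7 with no filter, 57 with mitochondrially encoded genes left out, 97 with adjusted p alone, 54 with the replicate block, 5 with all libraries in 1 fit and 66 with voom. In the average, calls were 21 with a pseudocount of 0.1, 74 with adjusted p alone, 1 with voom and 25 without CON16L and HS3W. For the difference between tissues (65 genes), they were 119 with no filter, 23 with median-ratio scaling, 38 with quantile normalization, 38 without mitochondrially encoded genes, 948 with arrayWeights, 2 with the replicate block, 7 with voom and 289 without CON16L and HS3W. The replicate block changed the number of clock genes called in no comparison. With 1 library left out, calls ran from 0 to 1 in liver, 0 to 160 in eWAT (160 without HS3W), 10 to 61 in muscle (10 without CON72M, 61 without HS2M), 5 to 55 in the average (5 without HS2L or HS3M, 55 without HS5W) and 23 to 277 for the difference between tissues (23 without CON71W, 277 without HS5L).

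Signs turned for the differences below. None of the genes in this paragraph was called in the main fits, so a turned sign could only be that of an uncalled difference. In liver, Nr1d2 was −0.09 with median-ratio scaling, −0.30 with quantile normalization and −0.11 in the study's libraries, and with mitochondrially encoded genes left out Nr1d2 was −0.40 and Clock and Dbp were 0.00; that setting moved the median of all liver genes from 0.13 to −0.26, beside Cry1 at 0.88 and Nr1d1 at 0.42. In eWAT, Nr1d1 was −0.13 and Dbp −0.04 in the study's libraries. In muscle, Per1 was 0.05 with median-ratio scaling and 0.00 with quantile normalization. In the average, Dbp and Nfil3 were −0.02 with quantile normalization. Without mitochondrially encoded genes, Per2, Tef and Nfil3 were −0.05 and Dbp −0.13. With arrayWeights, Per2 was −0.03, Dbp −0.15, Bhlhe41 −0.01, Wee1 −0.09 and Sgk1 0.01. In the study's libraries, Per2 was −0.14, Dbp −0.06 and Tef −0.04, and Sgk1 was 0.16 without CON16L and HS3W. With 1 library left out, Per2 in liver ran from −0.91 to 0.26, Nr1d2 in liver from −0.13 to 0.15, Nr1d1 in eWAT from −0.13 to 0.46, Dbp in eWAT from −0.04 to 0.33, Per1 in muscle from −0.38 to 0.31, Per2 in the average from −0.06 to 0.34, Dbp from −0.06 to 0.25 and Sgk1 from −0.17 to 0.10. Several ratios turned in sign with 1 library left out. Per1 to Dbp ran from −0.06 to 0.58 in muscle and from −0.13 to 0.46 in eWAT. In liver, Cry1 to Dbp ran from −0.08 to 1.43, Dbp to Arntl from −0.46 to 0.69 and Ciart to Arntl from −0.23 to 1.27. Per3 to Clock in eWAT ran from −0.11 to 0.11 and Per2 to Arntl in muscle from −0.12 to 0.15. Per2 to Nr1d1 in muscle kept its sign, from 0.45 to 0.65.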
